A study of Mus musculus with 3 samples.

Results

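Elastin, the fibrillins, the microfibril-associated proteins, the fibulins of elastic fibre assembly and the enzymes that crosslink them were followed across the cell types of mouse dorsal skin. The 10 genes (Eln, Fbn1, Fbn2, Fbln5, Efemp2, Mfap2, Mfap4, Mfap5, Lox and Loxl1) were chosen by name from the 32285 genes of the deposited feature list, and all 10 were found. No rule on their measured levels was used, though earlier results of these data were known when they were chosen. Full-thickness dorsal skin of female wild type C57BL/6J mice, 8 weeks old at the start, was dissociated and single cells were sequenced by a droplet method that reads transcript 3' ends, in 3 libraries with 1 for each group. The CON library came from unirradiated skin that received vehicle, the UV library from skin given vehicle and mixed UVA and UVB (at 0.6 and 3.5 mW/cm2) on alternate days over 12 weeks, and the Rux library from skin irradiated in the same way and treated after each exposure with a topical ointment of 1.5% ruxolitinib. Ruxolitinib inhibits the kinases JAK1 and JAK2. Tissue was taken 24 h after the last exposure, and the number of mice behind each library was not stated in the sources used here. With 1 library per group, no difference between groups has a replicate check and none was tested.

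An elastic fibre has a core of crosslinked elastin laid onto a scaffold of microfibrils. Fibrillins form the microfibril backbone and carry small glycoproteins such as MAGP-1 (Mfap2) and MAGP-2 (Mfap5), while fibulin-4 (Efemp2), fibulin-5 (Fbln5) and Mfap4 take part in the placing and assembly of elastin, and LOX and LOXL1 oxidise lysines of tropoelastin so that the monomers join. In skin these genes are mainly known from dermal fibroblasts, and the disordered elastic material of chronically sun-exposed dermis is called solar elastosis.

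The 10 genes lie apart in the genome. On GRCm38, Eln spans chr5:134702593-134747323 on the minus strand, Fbn1 chr2:125300594-125507993 and Fbln5 chr12:101746565-101819055 likewise on the minus strand, and Mfap4 chr11:61485431-61488900 on the plus strand. No other gene overlaps a member on the same strand, whereas Eln, Fbn1, Fbn2, Efemp2, Mfap4 and Lox each overlap 1 annotated gene on the opposite strand. The promoters of 4 of the 10 members (Fbn1, Fbln5, Efemp2 and Mfap2) matched the RefSeq table on GRCm38.p6, which gives 250 bases before to 50 bases after a gene's start. Some genes have several windows there, 3 for Efemp2 and 2 each for Fbln5 and Mfap2. Fbn1 and Fbln5 are shown here because Fbn1 was measured chiefly in fibroblasts and Fbln5 in both fibroblasts and endothelium. Capitals mark matches on either strand to GGGCGG, the core of a GC box, or to CCAAT.
Fbn1: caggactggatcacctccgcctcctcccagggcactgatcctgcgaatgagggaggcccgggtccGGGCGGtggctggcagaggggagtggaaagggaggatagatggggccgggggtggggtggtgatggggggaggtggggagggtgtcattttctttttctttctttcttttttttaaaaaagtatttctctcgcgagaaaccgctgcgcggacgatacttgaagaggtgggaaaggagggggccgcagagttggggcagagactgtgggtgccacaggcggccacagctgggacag
Fbln5: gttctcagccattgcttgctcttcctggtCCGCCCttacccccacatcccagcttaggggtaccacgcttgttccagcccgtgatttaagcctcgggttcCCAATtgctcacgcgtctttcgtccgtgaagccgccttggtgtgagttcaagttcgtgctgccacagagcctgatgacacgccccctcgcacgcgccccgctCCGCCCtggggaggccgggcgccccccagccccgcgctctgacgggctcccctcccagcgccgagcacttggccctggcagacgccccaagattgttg
The Fbn1 window (chr2:125506389-125506688, minus strand) had 60.3% GC and 1 GGGCGG match, and the Fbln5 window (chr12:101819070-101819369, minus strand) had 65.7% GC, 2 GGGCGG matches and 1 CCAAT match. The Fbn1 window lies inside the gene span given above, downstream of its outermost annotated start, and so belongs to a RefSeq start of another transcript. The second Fbln5 window (chr12:101818435-101818734), not printed, had 48.7% GC and 0 matches to either motif. Across all 32851 promoters of the table, 35.7% held GGGCGG, 37.4% held CCAAT and the median GC content was 52.7%, so these letters are common and describe the windows only.

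The libraries held 131570327 to 165337289 unique molecular identifiers (UMIs, each standing for 1 captured transcript, and scaled below to CPM, UMIs per 1e6 UMIs of the cells summed), and 30307 of 36868 deposited cells passed the filters, with a median of 7549 UMIs per cell in CON, 7661 in UV and 9432 in Rux. The labels give female mice, yet the Y-linked Ddx3y was at 110 to 121 CPM and Xist at 0.0921 to 0.119 CPM in all 3 libraries, so that sex as labelled went against the data in each group alike. CON and UV shared 50 cell barcodes, CON and Rux 28, and UV and Rux 40. Leaving out the 98 of 13440 fibroblast-like cells with a shared barcode left all 30 of the member ratios given below inside their counting intervals.

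Cells were grouped with the members kept out of the clustering, and clusters were named from marker genes. Classes include FB-like (fibroblast), VEC-like (blood endothelial), LEC-like (lymphatic endothelial), EPI-like (epithelial) and LYM-like (lymphocyte). PCY-like stands for pericytes and vascular smooth muscle together, since its marker list held genes of both. There were 3385 FB-like cells in CON, 5060 in UV and 4995 in Rux. A level is the summed UMIs of a gene in a class divided by all UMIs of that class, in CPM. Since a 3' library counts transcript ends, no correction for length was made and levels are compared between libraries or classes for the same gene. Intervals are exact Poisson intervals for levels and exact binomial intervals for shares and ratios, at 95%, and cover counting error only, since cells of 1 library are not replicates. Free RNA from broken fibroblasts reaches other droplets, so the level that this would give was computed from the fibroblast transcripts Col1a1, Col1a2, Col3a1 and Dcn, and levels outside fibroblasts are given with the ratio of observed to expected.

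Of the named classes with at least 50 cells in each library, FB-like cells had the highest level of 9 of the 10 genes in all 3 libraries, and Fbln5 was the exception. Of the unnamed clusters, 1 with shallow cells led by Gdf10 and Mgp held Eln at 51.5, 172 and 76.6 CPM and Efemp2 at 72.6, 113 and 65.8 CPM in CON, UV and Rux. Its Efemp2 level was above that of FB-like cells in CON (60.7 to 86.1) and UV (96.2 to 131), and its Eln interval in UV (151 to 195) held the FB-like level. The class held 91.5% of all Lox UMIs in CON, 94.96% in UV and 97.1% in Rux, and 69.8, 76.9 and 93.9% of the Eln UMIs. These shares depend on how many cells of each class were captured, and FB-like cells made up 31.4% of kept cells in CON, 49.5% in UV and 53.7% in Rux. Lox, which crosslinks elastin and collagen, was measured in LEC-like cells at 7.18 CPM in CON, 5.89 in UV and 5.75 in Rux, which is 1.07, 1.02 and 1.00 times the level that free fibroblast RNA would give. Fbn2 in EPI-like cells was likewise near that background, at 1.10, 0.835 and 0.881 times the expected level.

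**Figure D1:**
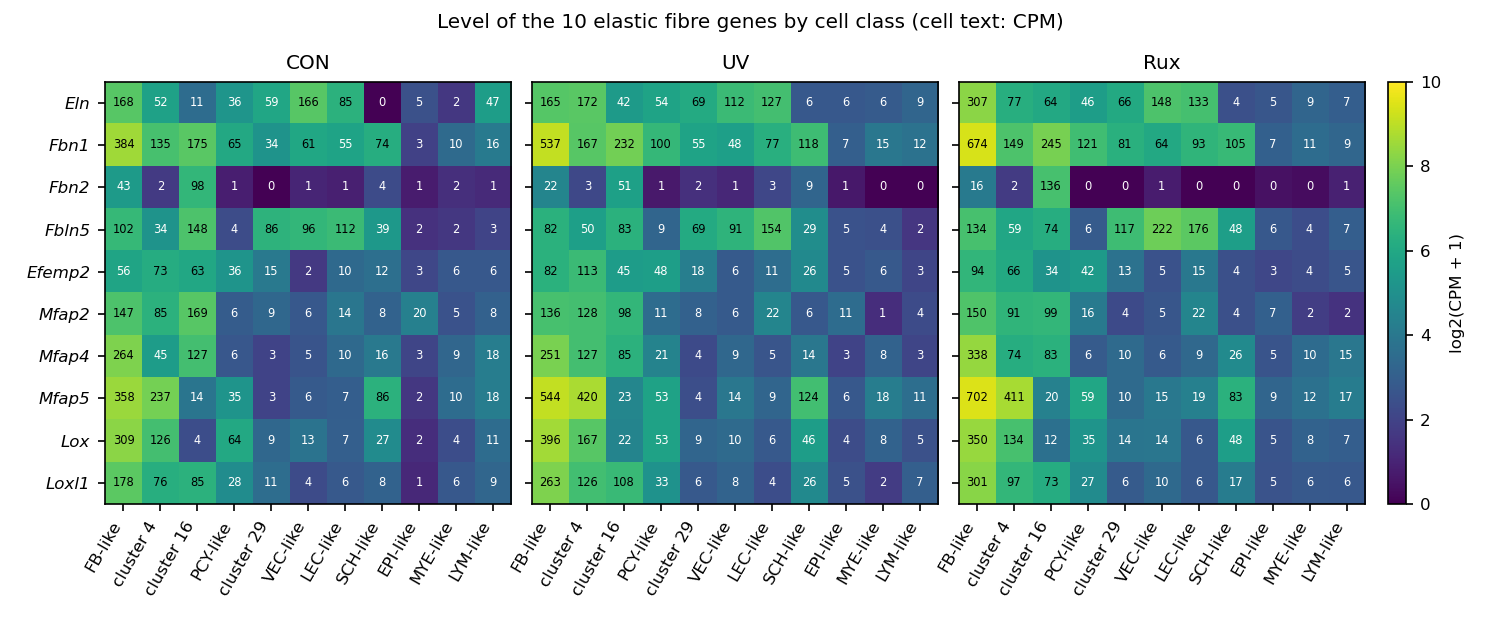
Level of each of the 10 genes (rows, CPM as text and log2(CPM + 1) as colour) by cell class (columns) in the CON, UV and Rux libraries (panels), 1 library per group. Of the named classes FB-like cells carry the highest level of 9 genes, while Fbln5 is highest in LEC-like cells of CON and UV and in VEC-like cells of Rux.

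Elastin transcript was not limited to fibroblasts. VEC-like cells, which line blood vessels, held Eln at 166 CPM in CON (95% interval 151 to 182), 112 in UV (101 to 124) and 148 in Rux (129 to 169). In CON this interval overlapped that of FB-like cells at 168 CPM (163 to 173), and the VEC-like level was 57.8 times that expected of free RNA, with 29.2 times in UV and 24.01 times in Rux. The UV over CON log2 ratio of Eln in VEC-like cells was -0.57 (-0.76 to -0.37) and the Rux over UV ratio 0.40 (0.15 to 0.64), so the UV library was the lowest of the 3 in the class as a whole. The 2 clusters of the class differed in this. In the cluster led by Gpihbp1, Rbp7 and Sox17 (221, 384 and 127 cells), Eln was at 89.4 CPM in CON, 85.3 in UV and 131 in Rux, and in the cluster led by Sele, Selp, Vwf and Ackr1 (195, 97 and 56 cells) at 234, 183 and 174 CPM. The class values therefore mix 2 levels in proportions that differ between libraries. In Rux, 1 VEC-like cell held 29 of the 216 Eln UMIs of the class (13.4%), and the Rux over UV ratio without it was not computed. LEC-like cells, the lymphatic lining, had Eln at 84.985 CPM in CON (77.8 to 92.6), 127 in UV (116 to 138) and 133 in Rux (119 to 148). There the CON library was the lowest, the UV and Rux intervals overlapped, and 1 cell held 22.8% of the CON UMIs. With every cell thinned to 2000 UMIs, 22.9% of VEC-like cells in CON, 16.5% in UV and 22.0% in Rux held an Eln UMI, against 15.5, 18.6 and 20.5% of FB-like cells and 1.64, 1.75 and 2.32% of LYM-like cells, which should lack the gene. Without thinning, the FB-like shares were 33.5, 40.5 and 49.4%. The LYM-like Eln level of CON, 46.7 CPM, is no class level: 70 of its 74 UMIs came from 1 cell.

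Taken over whole classes, Fbln5, which encodes the integrin-binding fibulin that tethers elastin to microfibrils, was highest outside fibroblasts. The FB-like cluster led by Coch, Fmod and Kera (43, 101 and 73 cells) was above the endothelial classes given next, at 488, 530 and 491 CPM in CON, UV and Rux. So was the FB-like cluster led by Igfbp2 and Grem1 (379, 71 and 265 cells), at 238, 179 and 381 CPM. In LEC-like cells Fbln5 measured 112 CPM in CON (103 to 120.3), 154 in UV (143 to 166) and 175.5 in Rux (159 to 193). In VEC-like cells it measured 96.3 CPM in CON (85.1 to 108), 90.9 in UV (81.2 to 102) and 222 in Rux (199 to 248). The Rux VEC-like level stands apart from the other two, with a Rux over UV log2 ratio of 1.29 (1.06 to 1.52), whereas UV over CON was -0.083 (-0.32 to 0.16). Both VEC-like clusters showed it. In the cluster led by Gpihbp1, Rbp7 and Sox17, Fbln5 was at 67.4, 69.3 and 178 CPM in CON, UV and Rux, and in the cluster led by Sele, Selp, Vwf and Ackr1 it was at 122, 148 and 292 CPM. Observed over expected was 47.6 to 82.5 in VEC-like cells and 50.5 to 129 in LEC-like cells, and LYM-like cells stood at 1.97 to 7.04 CPM. The VEC-like class had 416 cells in CON, 481 in UV and 183 in Rux.

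A few other cells carried members above the free-RNA level. Mfap2, a fibrillin-binding microfibril protein, was at 19.6 CPM in EPI-like cells of CON, 10.6 in UV and 7.47 in Rux, or 8.92, 2.70 and 2.03 times the expected level, with a UV over CON log2 ratio of -0.88 (-1.03 to -0.74). The EPI-like cluster led by Adamts19, Hsd11b2 and Krt24 held Mfap2 at 41.6 CPM in CON, 52.9 in UV and 47.5 in Rux. In the cluster led by Epgn, Wincr1 and Edar, Mfap2 instead went from 27.5 CPM in CON to 9.76 in UV and 4.22 in Rux. Its 10 leading genes also hold Shh, and Edar and Shh are genes of hair follicle placodes and matrix. Another EPI-like cluster with Edar and Shh among its leading genes, led by Hist1h2ae, held Mfap2 at 19.5, 13.9 and 1.96 CPM. Efemp2 in PCY-like cells was at 35.5, 47.7 and 42.2 CPM, 4.63 to 10.7 times the expected level. An unnamed cluster led by Lingo2, Dcc and Kcnd2 (249 cells in CON, 258 in UV and 90 in Rux) held Fbn2, the fibrillin best known from development, at 98.4 CPM in CON, 50.7 in UV and 136 in Rux, above the FB-like level in each library. Its CON levels of Mfap2 (169 CPM, 158 to 180.3) and Fbln5 (148 CPM, 138.0 to 158.5) were also above those of FB-like cells. The same cluster held Lox at 4.18, 21.8 and 11.8 CPM, below the level computed for free RNA. The fibroblast transcripts behind that estimate summed to 2566, 2198 and 1306.5 CPM there, and the marker rule placed the cluster between the PCY-like and FB-like classes. Whether its cells make these transcripts themselves was not tested, and if they do, the computed level is too high.

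Smaller clusters were measured too. An unnamed cluster led by the pericyte genes Rgs5 and Abcc9, whose 10 leading genes also hold the endothelial Rbp7, Gpihbp1, Fabp4 and Adgrf5 (68, 165 and 57 cells in CON, UV and Rux), held Eln at 58.7, 69.1 and 65.9 CPM and Fbln5 at 86.4, 68.6 and 117 CPM, 5.58 to 28.9 and 22.6 to 70.3 times the free-RNA level. The PCY-like class is a single cluster led by Myh11, Lmod1, Pln and Acta2, so its leading genes are those of smooth muscle more than of pericytes. PCY-like cells held Eln at 36.3, 54.5 and 46.5 CPM, 1.56 to 3.66 times the free-RNA level, and Fbln5 at 4.04, 8.67 and 6.34 CPM, near or below it. The fibroblast transcripts behind the estimate summed to 1901, 2474 and 2358 CPM in PCY-like cells, so the same limit applies. Melanocyte-like cells held Fbln5 at 38.4 CPM in CON, 43.7 in UV and 12.2 in Rux, from 155, 65 and 38 cells. Schwann-like cells held Mfap5 at 85.6, 124 and 83.1 CPM, 1.74 to 5.02 times the free-RNA level. In LEC-like cells Fbn1 was at 55.1, 77.3 and 93.3 CPM, 6.60 to 9.88 times that level and lowest in CON as in fibroblasts.

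Within FB-like cells, elastin itself did not differ between CON and UV beyond counting error and was higher in Rux. Eln was at 168 CPM in CON (163 to 173), 165 in UV (161 to 169) and 307 in Rux (302 to 311). The log2 ratios were -0.022 (-0.079 to 0.035) for UV over CON and 0.89 (0.85 to 0.93) for Rux over UV. The 3 contrasts share libraries, so a high or low value in 1 library enters 2 of them.

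The fibrillins went opposite ways. Fbn1, the main fibrillin of adult tissue, was at 384 CPM in CON (376 to 392), 537 in UV (529 to 544) and 674 in Rux (667 to 681). Fbn2 was at 43.0 CPM in CON (40.4 to 45.7), 22.4 in UV (20.955 to 23.9) and 16.2 in Rux (15.1 to 17.3). The intervals of the 3 libraries were apart for both genes, with CON lowest for Fbn1 and highest for Fbn2.

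Among the microfibril-associated genes, Mfap5 followed the order of Fbn1 and Mfap2 hardly differed. Mfap5 was at 358 CPM in CON (351 to 366), 544.5 in UV (537 to 552) and 702 in Rux (695 to 709). Mfap2 was at 147 CPM in CON (142 to 152), 136 in UV (132 to 139) and 149.7 in Rux (147 to 153), with overlapping intervals in CON and Rux. Mfap4, which binds tropoelastin and fibrillin, was at 264 CPM in CON (257 to 270.25), 251 in UV (246 to 256) and 338 in Rux (333 to 343). Here Rux stood above both other libraries, which lay next to each other.

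Both fibulins and both crosslinking enzymes were measured in FB-like cells too. Fbln5 was at 102 CPM in CON (97.6 to 106), 82.2 in UV (79.3 to 85.04) and 134 in Rux (131 to 137), lowest in UV. Efemp2, whose protein brings LOX to tropoelastin, was at 55.9 CPM in CON (53.0 to 59.0), 82.3 in UV (79.5 to 85.2) and 93.8 in Rux (91.3 to 96.4). Loxl1, a lysyl oxidase needed for the upkeep of elastic fibres, was at 178 CPM in CON (173 to 183), 263 in UV (258 to 269) and 301 in Rux (296 to 306). Lox was at 309 CPM in CON (302 to 316), 396 in UV (389.55 to 402) and 349.55 in Rux (345 to 354). For Efemp2 and Loxl1 the CON library was lowest and Rux highest, whereas for Lox it was UV that was highest.

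**Figure D2:**
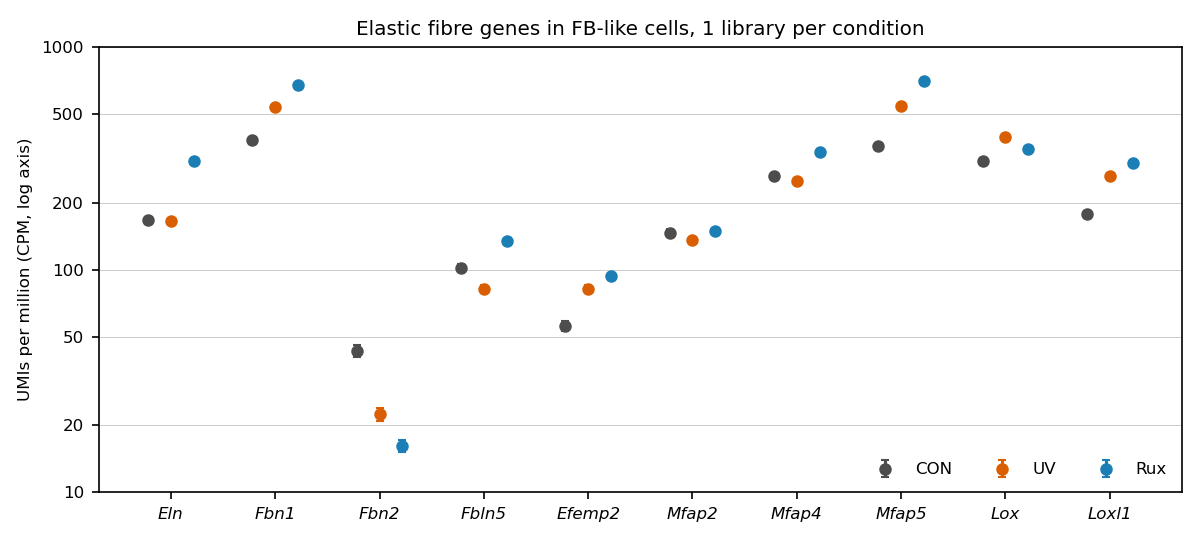
Level of each gene in FB-like cells (CPM, log axis) of the CON, UV and Rux libraries, with bars for 95% Poisson counting intervals, 1 library per group. Eln is at 168, 165 and 307 CPM and Fbn2 at 43.0, 22.4 and 16.2 CPM.

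A gene was counted as higher or lower in a contrast when its log2 ratio (with 0.5 UMI added) was at least 0.5 in size and its mean level at least 10 CPM; all 10 members met the level. In UV over CON, 3 members were higher by this size, Mfap5 (0.60), Loxl1 (0.57) and Efemp2 (0.56), where 7.78% of 8382 genes were, and 1 was lower, Fbn2 (-0.94), where 11.6% of genes were. In Rux over UV, Eln (0.89) and Fbln5 (0.71) were higher, where 4.7% of 8167 genes were, and 0 members were lower, where 6.78% of genes were. In Rux over CON, 5 members were higher, Mfap5 (0.97), Eln (0.87), Fbn1 (0.81), Loxl1 (0.76) and Efemp2 (0.75), where 9.0% of 8353 genes were, and Fbn2 (-1.41) was lower, where 13.1% of genes were. The median log2 ratio of the members was 0.17 for UV over CON, 0.26 for Rux over UV and 0.57 for Rux over CON, beside -0.11, 0.031 and -0.078 for all genes at that level. With every cell weighted equally, 2 members in place of 4 reached the size in UV over CON, where 6.64% of genes were higher and 9.85% lower. Scaling by the median of ratios moved the medians of all genes to -0.0026, 0.072 and 0.066. That scaling gave 10.7% of genes higher and 7.61% lower in UV over CON and 13.4% higher and 8.41% lower in Rux over CON, with 4 members higher and 1 lower in the former and 7 higher and 1 lower in the latter; Rux over UV stayed at 2 and 0 members, with 5.72% of genes higher and 5.93% lower.

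**Figure D3:**
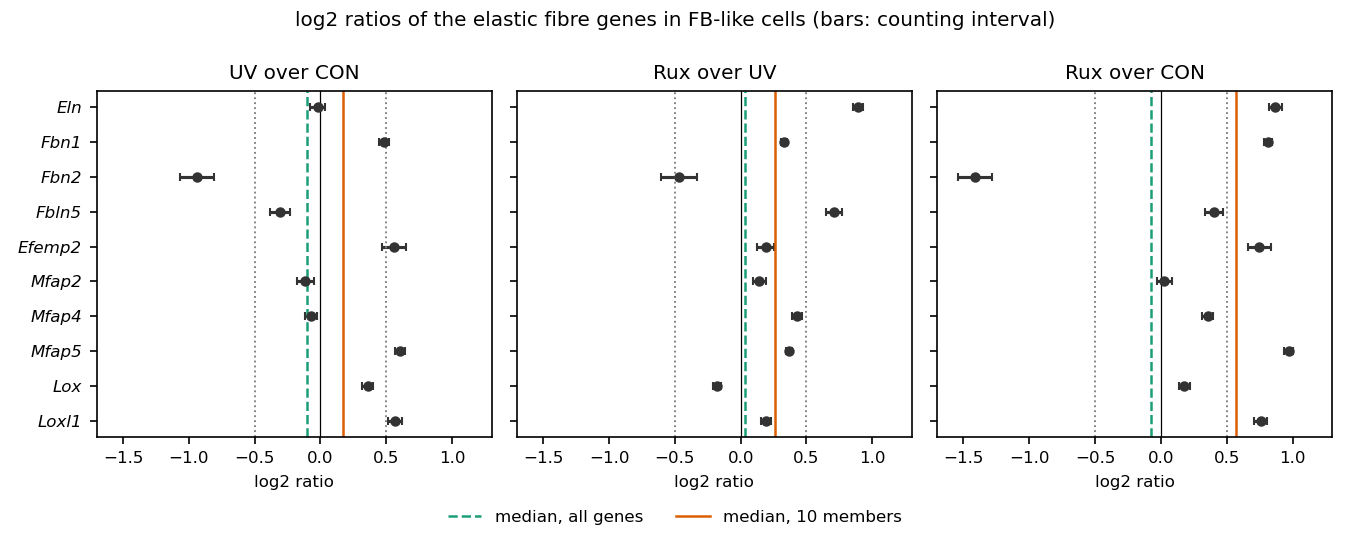
Log2 ratio of each gene in FB-like cells for UV over CON, Rux over UV and Rux over CON, with bars for 95% counting intervals, dotted lines at 0.5 in either direction, a dashed line for the median of all genes and a solid one for the median of the members. Eln lies near 0 for UV over CON and at 0.89 for Rux over UV, while Fbn2 lies below 0 in all 3 contrasts.

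Other genes of the elastic fibre system were counted the same way in FB-like cells. Of 18 accessory proteins of microfibrils and elastic fibres, 14 met the level in UV over CON, where 3 were higher and 1 lower with a median of 0.066. Ltbp1, which anchors latent TGF-beta to microfibrils, was at 178 CPM in CON, 375 in UV and 304 in Rux (UV over CON 1.08), while Ltbp4, which takes part in elastin deposition, was at 270.26, 126 and 154 CPM (-1.10). In Rux over UV, 14 of the 18 met the level, 1 was higher (Emilin1, 0.50) and 0 were lower with a median of 0.080. In Rux over CON, 15 met it, with 4 higher, 1 lower and a median of 0.23. Of 8 genes for tropoelastin and lysyl oxidase processing, 7 met the level in each contrast, with 2 higher and 1 lower in UV over CON, 0 and 1 in Rux over UV, and 1 and 1 in Rux over CON, and medians of -0.0066, -0.018 and 0.061. Loxl4, a further lysyl oxidase, was the lower one each time, at 33.0, 16.6 and 10.7 CPM. The protease Bmp1, which trims the LOX propeptide, was at 190.3, 264 and 261 CPM, a UV over CON log2 ratio of 0.47.

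Enzymes that degrade elastin were mostly low in FB-like cells. Of 11 listed, 4 met the level in each contrast (Mmp2, Ctsk, Ctsl and Ctsb), with 0 higher in UV over CON, 1 higher in Rux over UV (Ctsk, 0.54), 1 higher in Rux over CON (Mmp2, 0.51) and 0 lower in any, and medians of 0.16, 0.26 and 0.26. Macrophage elastase Mmp12 was at 0.0845 CPM in CON, 0.484 in UV and 0.660 in Rux, too few UMIs for a comparison. Others under the level, and so not counted, did differ beyond counting error. Prtn3 was at 3.51, 8.13 and 7.07 CPM, with a UV over CON log2 ratio of 1.21 (0.86 to 1.58). Ctss was at 1.31, 3.49 and 3.36 CPM, with 1.40 (0.84 to 2.03). Mmp9 was at 0.254, 0.306 and 3.03 CPM, with a Rux over UV ratio of 3.255 (2.47 to 4.29). Free RNA from other classes into FB-like cells was not estimated. NEU-like (neutrophil) cells numbered 50 in CON, 22 in UV and 226 in Rux, and whether FB-like cells make these transcripts themselves was not tested. Elane, Ctsg and Cela1 were near 0. Of 6 inhibitors, 4 met the level in UV over CON and 5 in the others. In UV over CON 0 were higher or lower, with a median of 0.17, while Timp1 (0.94 and 1.35) and Slpi (0.73 and 1.18) were higher in Rux over UV and Rux over CON, with list medians of -0.12 and 0.027. Timp1, an inhibitor of matrix metalloproteinases, was at 117, 156 and 299 CPM. It is among the leading genes of subcluster 10, described below, which had 1 cell in CON, 14 in UV and 410 in Rux. All 7 genes for elastin and elastin-peptide receptors met the level, with 2 higher in UV over CON (Itgav, 0.97, and Itgb3, 0.86), 1 in Rux over UV (Lgals3, 0.99), 3 in Rux over CON and 0 lower, and medians of 0.14, 0.23 and 0.42. The shares of all genes counted as higher or lower, given above with the members, are the background of these counts: 7.78 and 11.6% in UV over CON, 4.7 and 6.78% in Rux over UV, and 9.0 and 13.1% in Rux over CON.

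Some markers of other cell types and of fibroblast state also differed between the libraries. The collagen transcript Col1a1 was at 7769 CPM in CON, 4238 in UV and 4180.5 in Rux, lower in both irradiated libraries as a sum. In subcluster 8, described below, it was at 32575, 34293 and 20009 CPM, from 403, 73 and 262 cells. The summed level thus depends also on how many of these cells each library held, and the level without them was not computed. The immediate-early gene Egr1 was at 3431, 1198 and 1298 CPM, Zfp36 at 2645, 960.42 and 964.57, and Socs3, a target of JAK-STAT signalling, at 889, 425 and 131. The acute-phase gene Saa3 was at 64.4, 83.25 and 753 CPM. Of 6 blood endothelial markers, Pecam1 was at 4.99, 37.8 and 20.5 CPM, the only 1 to reach 10 CPM. It is also among the leading genes of 1 of the fibroblast subclusters used below. Cdh5 was at 2.45, 2.60 and 0.946 CPM, and all 6 markers summed to 16.1, 48.3 and 25.3 CPM. The 9 epithelial markers summed to 520 CPM in CON, 216 in UV and 237 in Rux. For 5 red blood cell markers the sums were 5.07, 63.4 and 127 CPM. Of 6 vascular smooth muscle markers, 3 were at 10 CPM or more in FB-like cells of each library, the summed level was 247 CPM in CON, 149 in UV and 205 in Rux, and the defining Myh11 was near 0 at 1.73, 1.99 and 1.53 CPM. Median depth per FB-like cell was 6150, 7397.5 and 9999 UMIs. The part of these in the member ratios was not tested.

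FB-like cells were then divided into 12 subclusters, numbered by size and described by their leading genes, again with the members kept out of the clustering. The leading genes of some subclusters themselves differ between libraries, so cell numbers are given as the n behind a level and not as abundances. A subcluster's level in a library was given where it had at least 50 cells, which left 32 subcluster and library combinations. Elastic fibre genes differed widely between subclusters of the same library. Mfap4 ran from 5.24 CPM in subcluster 0 (Krt23, Dtna) to 499 in subcluster 8 (Grem1, Igfbp2) of CON, and Mfap5 from 69.2 CPM in subcluster 8 to 770.5 in subcluster 9 (Smpd3) there. So the 2 genes had opposite ends of the range in the same cells. Fbln5 was highest in subcluster 11 (Coch, Crabp1) in UV and Rux, at 525 and 510.35 CPM, and Lox in subcluster 4 (Myo16) in CON and UV, at 585 and 746 CPM. Loxl1 was highest in subcluster 9 in CON and UV, at 455 and 437 CPM, and lowest there in subcluster 6, at 72.7 and 125 CPM. In CON, Fbn1 varied less, from 174 CPM in subcluster 7 (Angptl7, Clu) to 697 in subcluster 9, and Efemp2 least, from 43.2 CPM in subcluster 6 to 85.3 in subcluster 9. In Rux, Efemp2 ran more widely, from 37.0 CPM in subcluster 11 to 254 in subcluster 10.

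**Figure D4:**
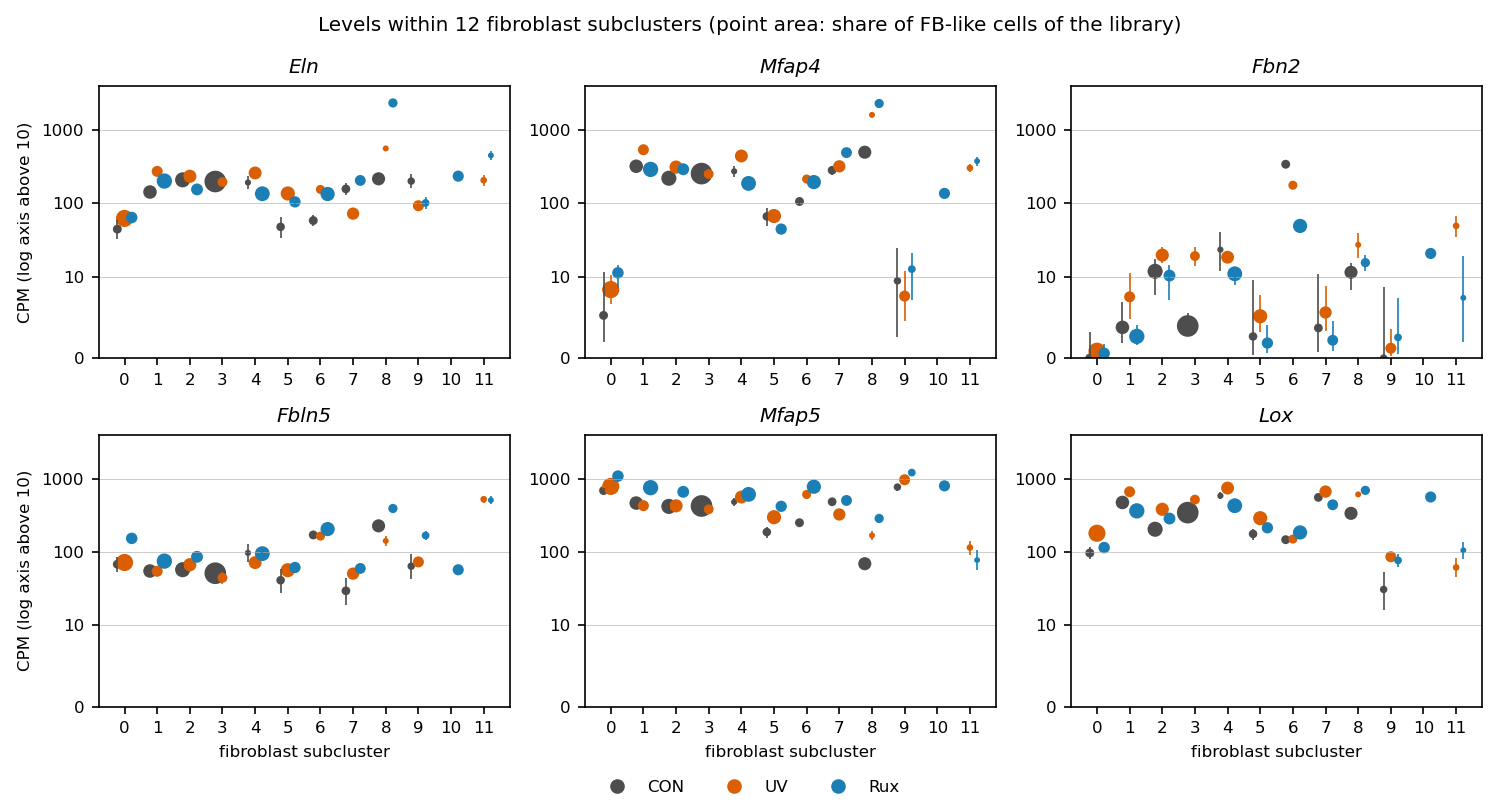
Level of 6 of the genes (CPM, log axis above 10) in the 12 FB-like subclusters for combinations with at least 50 cells, with bars for 95% counting intervals and point area for the share of FB-like cells of that library. Eln and Mfap4 peak in subcluster 8 of Rux at 2348.5 and 2306 CPM, and Fbn2 in subcluster 6 of CON at 342 CPM.

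Most of the higher summed Eln level of the Rux library came from subcluster 8. There Eln was at 216 CPM in CON (202 to 231), 562 in UV (517 to 611) and 2348.5 in Rux (2300.0 to 2398), with log2 ratios of 1.38 for UV over CON and 2.06 for Rux over UV. The subcluster had 403 cells in CON, 73 in UV and 262 in Rux, and held 22.3, 8.60 and 52.0% of the Eln UMIs of FB-like cells. Without it the Rux over UV log2 ratio of Eln in FB-like cells was 0.027 (-0.021 to 0.076) and the Rux over CON ratio 0.0026, in place of 0.89 and 0.87. The median cell of subcluster 8 held 1 Eln UMI in CON, 4 in UV and 7 in Rux, at median depths of 9813, 12683 and 13576 UMIs, and a UMI was found in 69.0, 76.7 and 89.3% of cells. In Rux the quartiles were 2 and 26 UMIs, and the cell with the most held 524, or 5.87% of the total. In Rux the 66 of 262 cells with the most Eln UMIs held 87.04% of them, and in CON 101 of 403 cells held 69.1% and in UV 19 of 73 held 73.3%.

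Mfap4 shared this pattern and Fbln5 did in part. In subcluster 8, Mfap4 was at 499 CPM in CON, 1613 in UV and 2306 in Rux, and the subcluster held 32.8, 16.3 and 46.3% of its FB-like UMIs. Without subcluster 8 the Mfap4 Rux over UV log2 ratio was -0.15 in place of 0.43. Fbln5 was at 227, 142 and 393 CPM there, and without it the Rux over UV ratio of Fbln5 was 0.52 in place of 0.71. For UV over CON, Fbln5 without subcluster 8 went from 75.2 CPM (CON) to 80.6 (UV). Its ratio was then 0.10 on the log2 scale (0.010 to 0.19) in place of -0.31, so its lower level in UV was not present outside the subcluster. Within subcluster 8 the smooth muscle markers summed to 60.9, 161 and 114 CPM with Myh11 at 2.68, 1.01 and 1.58, the blood endothelial markers to 19.0, 40.3 and 10.3 CPM, and Col1a1 was at 32575, 34293 and 20009 CPM. Across all 10 members, the median log2 ratio in subcluster 8 was 0.95 for UV over CON, 0.51 for Rux over UV and 1.17 for Rux over CON, beside -0.073, 0.087 and 0.0020 over all genes there.

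Fbn2 came mainly from subcluster 6, led by Ednrb, Acta2 and Acan, where it was at 342 CPM in CON (320 to 365), 177 in UV (162 to 193) and 49.2 in Rux (45.0 to 53.7). This subcluster had 162, 253 and 710 cells, and held 86.5, 58.8 and 56.1% of the FB-like Fbn2 UMIs. So Fbn2 was lower per UMI within it, by log2 ratios of -0.95 for UV over CON and -1.85 for Rux over UV. Without subcluster 6 the Fbn2 ratio of UV over CON turned to 0.62 (0.33 to 0.91) and that of Rux over CON to 0.42 (0.14 to 0.71), and Rux over UV was -0.20 (-0.40 to 0.013). Outside subcluster 6 the ratios to CON thus had the opposite sign, but at 6.49 CPM in CON, 9.97 in UV and 8.71 in Rux. These levels are under the minimum of 10 CPM used for counting genes, so Fbn2 is not counted in that sum. Taken 1 subcluster at a time, Fbn2 met the minimum in 5 for UV over CON. It was higher by a log2 ratio of at least 0.5 in 3 of these and lower in 1, subcluster 6, with a median of 0.72. Within subcluster 6 the smooth muscle markers summed to 1900.5 CPM in CON, 1353 in UV and 892 in Rux, with 3 of 6 at 10 CPM or more in each library. Of these markers Myh11 was at 0.777, 4.45 and 2.23, and Acta2 leads the subcluster. Whether they had a part in the Fbn2 values was not tested.

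Subcluster 10, led by Saa3, Hp and Lcn2, was almost all of 1 library, with 1 cell in CON, 14 in UV and 410 in Rux, so it may be a trait of that library. In Rux it held 35.4% of the FB-like Efemp2 UMIs at 254 CPM (Efemp2 was at 37.0 to 79.6 CPM in the other subclusters of Rux with at least 50 cells) and 24.5% of the Loxl1 UMIs at 562.5 CPM. Without it the Rux over UV log2 ratio was -0.23 for Efemp2, in place of 0.19, and -0.0093 for Loxl1, in place of 0.19. Efemp2 thus stood above UV in the Rux library only with these cells included.

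**Figure D5:**
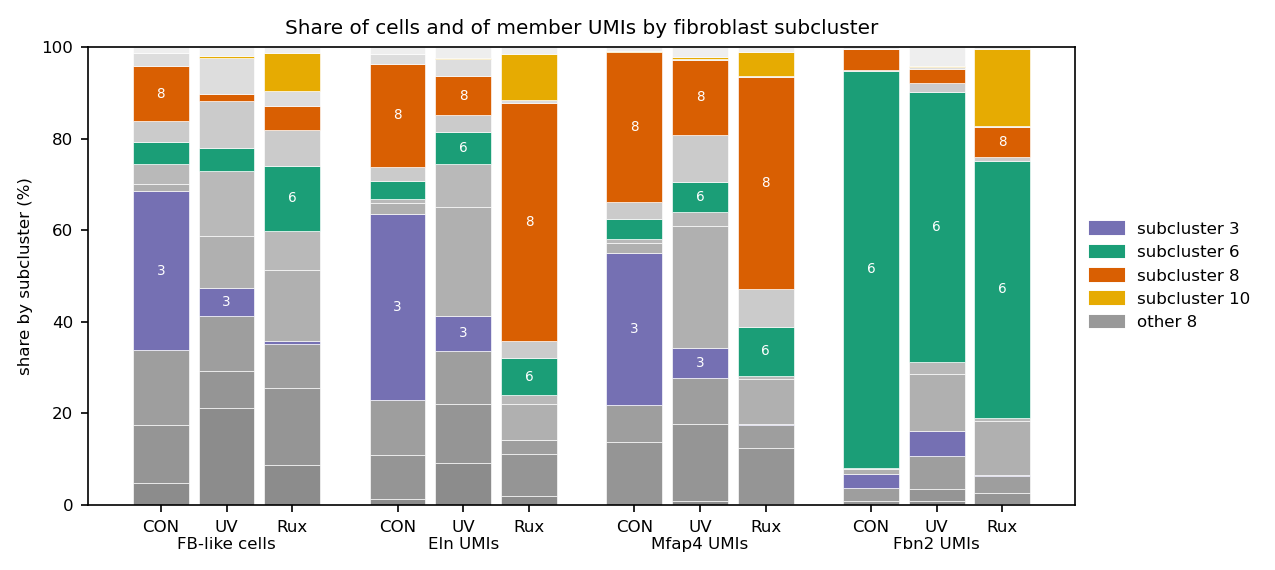
Share (percent) of FB-like cells and of their Eln, Mfap4 and Fbn2 UMIs by subcluster, as stacked bars for each library, with subclusters 3, 6, 8 and 10 in colour and the other 8 in grey. Subcluster 8 holds 52.0% of Eln UMIs in Rux against 8.60% in UV, and subcluster 6 holds 86.5% of Fbn2 UMIs in CON.

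Ratios taken inside each subcluster do not depend on how many cells it had. For UV over CON, Lox and Efemp2 were above 0 in 10 of 10 subclusters with enough cells and UMIs, Mfap2 in 9 of 10 and Fbn1 in 8 of 10. A log2 ratio of at least 0.5 was reached in 6 of 10 for Lox, 4 for Efemp2, 4 for Mfap2 and 3 for Fbn1. The lowest ratios were 0.028 for Lox and 0.016 for Efemp2. Subclusters are parts of the same libraries and not replicates, and the share of all genes above 0 as often was not counted. Eln was above 0 in 7 of 10, from -1.12 to 1.50, so the near-equal totals of CON and UV went with differences of either sign inside subclusters. For Rux over UV, Eln was above 0 in 5 of 10, with a median of -0.083 and a range of -0.94 to 2.06. Besides subcluster 8 it was higher by the size used here in subcluster 7 (72.5 CPM in UV and 205.5 in Rux, 1.50) and subcluster 11 (207 and 451 CPM, 1.12). Eln was lower by that size in 2, subcluster 4 (260 CPM in UV and 135 in Rux, -0.94) and subcluster 2 (234 and 155 CPM). Fbln5 and Mfap5 were above 0 in 9 of 10 subclusters and Fbn2 in 0 of 5, while Lox was above 0 in 3 of 10 and Efemp2 in 2 of 10. For Rux over CON, Mfap5 was above 0 in 9 of 9. When the subclusters of each library were weighted by their shares in CON, the Eln log2 ratio was 0.72 for UV over CON and 1.11 for Rux over UV, Mfap4 was at 1.10 and 0.19, Mfap2 at 0.31 and -0.19, and Lox at 0.63 and -0.36. Subcluster 8 made up 11.9% of FB-like cells in CON, 1.44% in UV and 5.25% in Rux. Its high Eln and Mfap4 levels in UV and Rux, given above, therefore count for more under CON weights than in the summed UMIs. The weighting used the 9 subclusters with at least 50 cells in every library. It left out subcluster 3, led by the stress-response genes Socs3, Zfp36, Irf1 and Egr1, which had 1176 cells in CON, 312 in UV and 35 in Rux and held 40.6% of the CON Eln UMIs, and so is not the full CON mixture. Eln was at 199 CPM in CON and 196 in UV in that subcluster. With it included, over 10 subclusters and for UV over CON alone, the ratio was 0.46 for Eln, 0.79 for Mfap4, 0.44 for Mfap2 and 0.62 for Lox. That of Fbn2 was 0.075, against -0.94 from summed UMIs. The weights were CON cell numbers and not UMIs, and subclusters 10 and 11 stayed left out. The weighted CON level of Fbn2 was 22.5 CPM, against 43.0 from summed UMIs. The 2 Fbn2 ratios therefore differ in the weights as well as in the mixture.

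The genes most like each member in level over the 32 subcluster and library combinations were listed by Pearson's r of log2 CPM, across sums that share libraries and depth, as a description. Eln was most like Vegfc (0.76), Gm42047 (0.75) and Aff3 (0.74), and Mfap4 most like Scarf2 (0.88), Cpxm2 (0.87) and Gnb4 (0.86). Fbn1 was most like Lamb1 (0.86), Ypel2 (0.82) and Arhgap29 (0.82), and Fbn2 most like Lgals1 (0.90), Tpm1 (0.89) and Idh2 (0.89). Fbln5 was most like Apcdd1 (0.90), Tmem132c (0.90) and Mef2a (0.88), and Efemp2 most like Cpxm1 (0.70), Lgmn (0.67) and Ctsb (0.67). For Mfap2 the nearest were Tnmd (0.86), Masp1 (0.85) and Cttn (0.85), and for Mfap5 Adamts5 (0.88), Pdlim1 (0.88) and Nid1 (0.86). For Lox they were Kcne4 (0.88), Prnp (0.85) and Thbs1 (0.84), and for Loxl1 Lama4 (0.78), Fyn (0.76) and Vgll3 (0.76). Among the members themselves the highest r were 0.78 for Mfap2 with Mfap4, 0.77 for Fbn2 with Mfap2 and 0.72 for Eln with Mfap4, and the lowest were -0.54 for Mfap2 with Mfap5 and -0.52 for Mfap4 with Mfap5. The 2 MAGP genes were therefore the members least alike in these cells.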

How the data were processed

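Cells of full-thickness mouse dorsal skin were profiled with 10x Chromium 3' v3.1 chemistry in 3 libraries (CON, UV and Rux, 1 each). The deposited matrices hold UMI counts per gene and cell, which the authors made with Cell Ranger. The labels give version 6.1.2 and the file headers 7.0.0, and whether intronic reads were counted is not given in the sources used here, so levels of genes with long introns may depend on it. No SD or p-value can be had with 1 library per group.

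From these counts, cells with 200 genes or more and no more than 10% of UMIs from mitochondrial genes were kept, and 3320 doublets were removed with Scrublet in scanpy 1.11.5, at a rate of 0.8% per 1000 cells, which left 30307 cells. Clustering in Seurat 5.3.0 (R 4.3.3) used 2000 variable genes without the members or their pathway genes, 30 components and a resolution of 1.5. FB-like cells were clustered again with 20 components at a resolution of 0.5. Classes were named from marker genes, and clusters that failed the marker rule stayed unnamed. Counts were summed per class and library (Python 3.11.15, scipy 1.17.1), and genes with a mean under 10 CPM were left out of counts of genes. Cells were thinned to 2000 UMIs for shares of cells. The calculation was tested on simulated data. These were independent Poisson counts, so the test checks the arithmetic of the intervals and does not cover UMIs concentrated in a few cells. The text names the 10 members, genes of their pathway lists that a sentence needs, and the 3 genes most similar to each member. Members, markers and lists were chosen with earlier results of these data known. In all, 10 alternatives were planned and 8 were added after seeing the data.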

Additional observations from a re-analysis of the deposited data

How the results depend on the processing

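Of the 30 log2 ratios in FB-like cells, 30 stayed within their counting intervals when the members were allowed among the variable genes, at a clustering resolution of 0.8, with haemoglobin, keratin and mitochondrial genes out of the totals, and without shared barcodes. Without doublet removal 28 did, with stricter cell filters 24, with the unnamed cluster led by Gdf10 and Mgp added 25, with median of ratios scaling 6, with cells weighted equally 5 and with subclusters weighted as in CON 1 (1 of 10 with subcluster 3 included). Without subclusters 8, 6, 3, 10 and 0 it was 9, 12, 11, 16 and 9. A minimum of 10 UMIs cannot move a member ratio, and of 18516 genes then counted in UV over CON 18.1% were higher and 20.2% lower, with 9.13 and 21.7% in Rux over UV and 14.992 and 24.972% in Rux over CON. The member median of UV over CON, 0.17, became 0.23 with stricter cell filters, 0.27 with median of ratios scaling, 0.30 with subclusters weighted as in CON (0.37 with subcluster 3 included), 0.22 with that unnamed cluster added, and 0.28, 0.34, 0.24 and 0.34 without subclusters 8, 6, 3 and 0. The median of Rux over UV, 0.26, became 0.20 with cells weighted equally, 0.22 with subclusters weighted as in CON, 0.15 without subcluster 8 and 0.22 without subcluster 10. The median of Rux over CON, 0.57, became 0.72 with median of ratios scaling, 0.47 without subcluster 8 and 0.73 without subcluster 6. The 4 members past the size in UV over CON became 2 with cells weighted equally, without subcluster 8, or weighted as in CON with subcluster 3. The shares of all genes higher and lower were then 6.64 and 9.85%, 7.57 and 11.7%, and 4.94 and 7.14%. The 2 members of Rux over UV became 4 with subclusters weighted as in CON or without subcluster 10 or 0, and 1 without subcluster 8. All genes were then at 3.25 and 5.37%, 5.19 and 6.52%, 3.81 and 6.52%, and 4.335 and 6.92%. A log2 ratio of at least 1 left 0 members in UV over CON, 0 in Rux over UV and 1 in Rux over CON. The share of all genes at that size was not counted. The count of 9 genes highest in FB-like cells was 8 without doublet removal or with that unnamed cluster added. Of the members past the size, Fbn2 changed sign. It turned to 0.62 for UV over CON and 0.42 for Rux over CON without subcluster 6, where its levels were under 10 CPM. Weighted as in CON with subcluster 3, it turned to 0.075 for UV over CON. Smaller ratios changed sign too. In UV over CON, that of Eln did in 7 of 17 settings, and those of Mfap2 and Mfap4 in 5 of 17. Eln turned to 0.068 with stricter cell filters, 0.11 without subcluster 3 and 0.19 without subcluster 0. Fbln5 turned to 0.10 without subcluster 8, Mfap2 to 0.19 and 0.11 without subclusters 8 and 0, and Mfap4 to 0.25 without subcluster 0. In Rux over UV, Mfap4 turned to -0.15 without subcluster 8, and Efemp2 and Loxl1 to -0.23 and -0.0093 without subcluster 10. There Mfap2 turned to -0.042 without subcluster 0, and Mfap2 and Efemp2 to -0.19 and -0.28 weighted as in CON. In Rux over CON, Mfap4 turned to -0.14 without subcluster 8 and Mfap2 to -0.19 without subcluster 3. The choices that left out a subcluster, weighted subclusters or cells, or rescaled differ by construction in which cells or totals count. No paired analysis was possible because each group has 1 library.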
